A study of Bos taurus with 6 samples.

Results

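The 100 genes described here were those whose transcript level differed most between heifers of the same treatment group in mammary gland. They were taken from 24579 genes counted by RNA sequencing, of which 11334 were eligible. A gene was eligible when it reached 2 CPM (the count of a gene scaled by the total count of the heifer) in at least 1 heifer, had a mean below 500 CPM over the 6 heifers and was not named in the text of the study. The standard deviation (SD) of log2(CPM + 0.1) was taken inside each group, the 2 SDs were averaged, and the genes were selected on this average, the 100 highest being kept. All descriptions of spread, on/off pattern and shared heifers below use the values by which the genes were chosen, so they carry no test.

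The samples were mammary biopsies from Holstein heifers at day 21 of their first lactation. In utero heat stressed heifers (IUHT-H, numbers 9196, 9203 and 9204) were born to dams that had shade only during the last 6 to 7 weeks of gestation. In utero cooled heifers (IUCL-H, numbers 9202, 9214 and 9223) were born to dams that also had fans and soakers. The heifers were born in 2014 and, after birth, all were managed alike. By design the groups differed in what the dam received before birth. The study names as a limit that many IUHT-H were culled, which left fewer animals to choose from. Each group had 3 animals, and a whole biopsy holds several cell types, so that fewer cells of a type and less RNA per cell cannot be told apart. Genotypes, parentage and udder health records of the heifers were not used here.

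Transcript levels may differ strongly between animals kept alike. Animals can carry different alleles of a regulatory element, or different numbers of copies of a gene, and such a gene may be transcribed in some animals and close to silent in others. Reads of near-identical gene copies, such as those of the leukocyte antigen complex, may also be placed on one copy or another depending on the allele. In the udder, inflammation raises acute phase proteins, antimicrobial peptides and chemokines that attract neutrophils, and its extent varies between cows.

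Total counts were between 75754791 and 101361294 per heifer, so that 3 counts corresponded to 0.0296 to 0.0396 CPM. The 10 genes with the most counts took 64.7 to 67.6% of all counts in heifers 9196, 9202 and 9203 and 72.1 to 74.7% in heifers 9204, 9214 and 9223. Relative to its mean over the heifers, the median eligible gene was shifted by -0.29 (9204) to 0.23 (9196) on the log2 scale. The labelled tissue could not be checked against milk protein genes, because none of the 21 symbols of that list had an identifier in the tables used for names. A symbol was found for 7 of the 100 genes (LOC615223, CHODL, CCDC196, ZG16B, BEST3, TMEM132B and LCNL1), and the other 93 are given by Ensembl identifier.

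The average SD of the 100 genes ranged from 1.28 to 3.72 with a median of 1.64, against a median of 0.28 over all eligible genes. Inside IUHT-H the median SD was 2.01, and inside IUCL-H it was 1.45. The SD was larger in IUHT-H for 61 of the 100 genes and for 72.9% of the eligible genes. From the lowest to the highest heifer the 100 genes spanned 2.76 to 9.18 on the log2 scale, with a median of 4.56 against 0.72 over eligible genes. Their levels were low. The median of the mean CPM was 2.87 against 10.6 over eligible genes, and 23 of the 100 genes had a mean of 10 CPM or more, against 51.8% of eligible genes. In 13 of the 100 genes at least 1 heifer had 0 counts, and these were all of the 13 eligible genes with a heifer at 0. The last genes taken were ENSBTAG00000031160 and ENSBTAG00000034140 with average SDs of 1.29 and 1.28, and the first genes left out were ENSBTAG00000031814 and ENSBTAG00000011465 with 1.28 and 1.27.

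**Figure D1:**
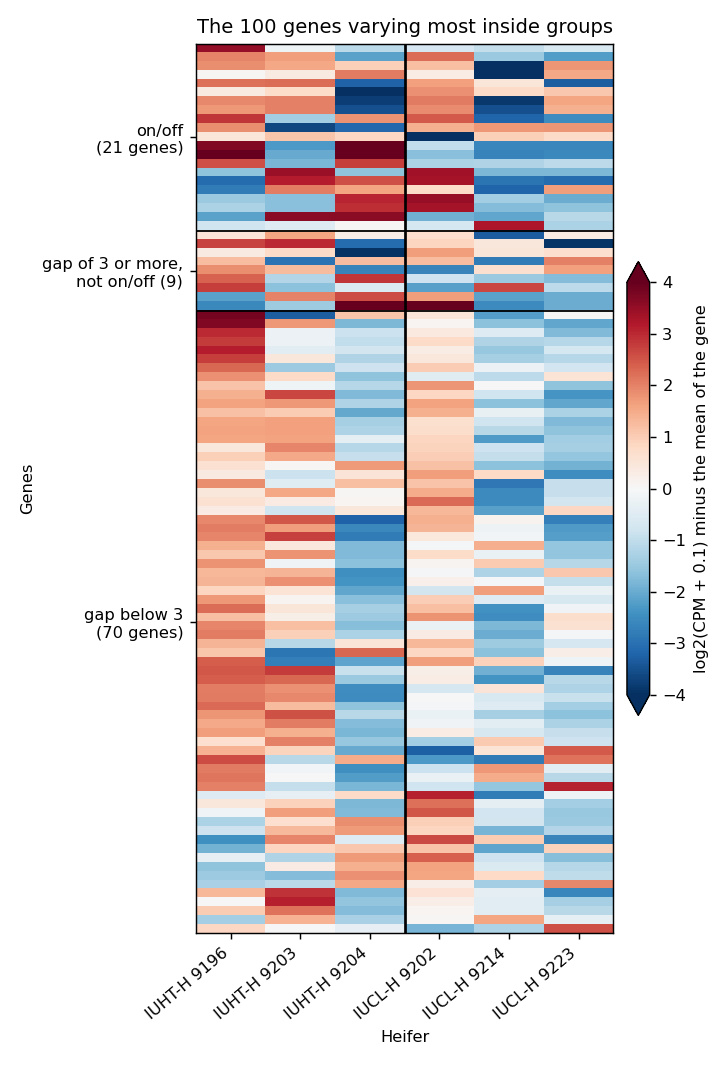
Levels of the 100 genes (rows) in the 6 heifers (columns), as log2(CPM + 0.1) minus the mean of the gene, with red above and blue below the mean and colours cut at 4 in either direction. The 21 on/off genes are at the top, 9 genes with a gap of 3 or more that were not on/off follow, and 70 genes with a smaller gap fill the rest. Red and blue cells occur on both sides of the line between the groups in all 3 blocks.

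To describe on/off patterns, the 6 values of a gene were sorted and the largest gap between neighbouring heifers was found. A gene was called on/off when this gap was at least 3 on the log2 scale (8-fold), every heifer below it was under 0.5 CPM and every heifer above it was at 2 CPM or more. This held for 21 genes, all of them among the 100, which is 0.185% of the eligible genes. A gap of at least 3 without the limits on CPM was present in 30 of the 100 genes, again all of the eligible genes with such a gap (0.265%). The gaps of the on/off genes ranged from 3.15 to 8.29 with a median of 4.56. The highest count of a heifer in the off state was 46 and the lowest count of a heifer in the on state was 177. Of the 61 off states, 28 were at 3 counts or fewer and 11 were at 0, and a count of 0 allowed a level of up to 3 counts. In the 19 on/off genes that were on in at least 2 heifers, the highest and lowest of these heifers differed by a median of 1.52-fold, and in 17 genes by no more than 3-fold. The on/off genes took 2 separated levels by this definition, with the on heifers closer to each other than to the off heifers.

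The widest gap was that of ENSBTAG00000001801, which was off in 1 heifer. It was at 75.0, 61.2 and 40.5 CPM in IUHT-H 9196, 9203 and 9204 and at 48.4 and 70.7 CPM in IUCL-H 9202 and 9223. In IUCL-H 9214 it was at 0.0296 CPM, from 3 counts against 3444 counts or more in each other heifer. The other 3 genes off in a single heifer were chosen after their values were seen. ENSBTAG00000018189 was at 0.491 CPM in IUCL-H 9202 and at 14.6 to 22.8 CPM elsewhere. ENSBTAG00000047029 was at 0.345 CPM in IUCL-H 9214 and at 9.32 to 38.2 CPM in the other heifers. ENSBTAG00000009656 was at 0.0118 CPM, a single count, in IUHT-H 9204 and at 3.83 to 10.6 CPM elsewhere. The off heifer was from IUCL-H in 3 of these 4 genes and from IUHT-H in 1. The off state was not always the absence of reads, since heifer 9202 had 45 counts of ENSBTAG00000018189 and heifer 9214 had 35 counts of ENSBTAG00000047029.

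Several on/off genes divided both groups. ENSBTAG00000021565 was at 7.38 and 4.92 CPM in IUHT-H 9203 and 9204 and at 0 counts in IUHT-H 9196. In IUCL-H it was at 8.39 CPM in heifer 9202, at 1 count in heifer 9214 and at 0 counts in heifer 9223. It was on in 2 IUHT-H and in 1 IUCL-H, and the on IUCL-H was the highest of the 3. ENSBTAG00000032057 was at 3.64 CPM in IUHT-H 9203 and at 3.39 CPM in IUCL-H 9202, and no other heifer had more than 1 count. ENSBTAG00000015727 was at 16.1 and 16.5 CPM in IUHT-H 9196 and 9203 but at 0.271 CPM in IUHT-H 9204. In IUCL-H the same gene was at 10.8 and 4.83 CPM in heifers 9202 and 9214 but at 0.258 CPM in heifer 9223. Each of these genes was on in at least 1 heifer and off in at least 1 heifer of both groups. On and off heifers were present in both groups for 10 of the 21 on/off genes. Over all 100 genes, the largest gap left heifers of both groups on both of its sides in 53, close to the share of eligible genes (49.4%).

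**Figure D2:**
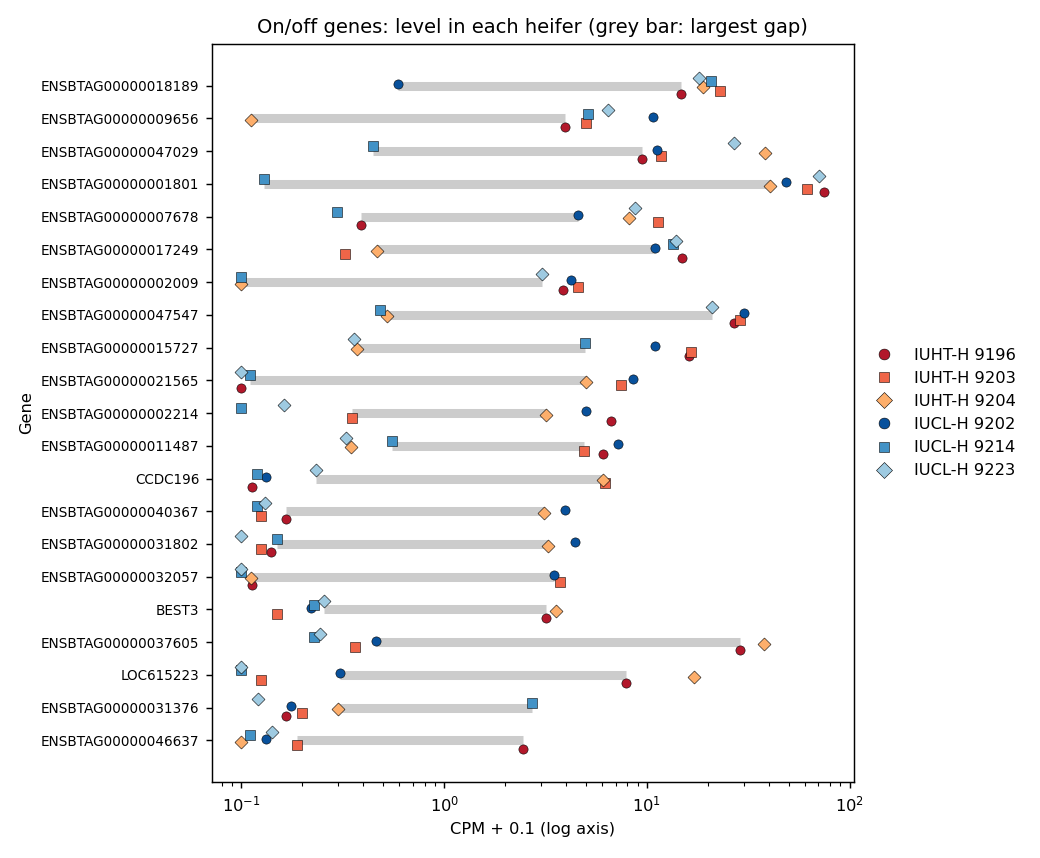
Level of each of the 21 on/off genes in each heifer, as CPM + 0.1 on a log axis. Red to orange points are IUHT-H, blue points are IUCL-H, points are moved slightly up or down to be seen, and the grey bar spans the largest gap. The bar of ENSBTAG00000001801 is the longest, and only heifer 9214 lies to its left.

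Of the 21 on/off genes, 2 were on in 1 heifer, 7 in 2 heifers, 3 in 3 heifers, 5 in 4 heifers and 4 in 5 heifers. The number of on states was 38 of 63 in IUHT-H and 27 of 63 in IUCL-H. By heifer, 14 genes were on in 9196 and 12 each in 9203 and 9204, against 14, 5 and 8 in 9202, 9214 and 9223. Heifer 9202 of IUCL-H therefore had as many genes on as heifer 9196 of IUHT-H, and heifer 9214 had the fewest. For every pair of heifers, the on/off genes in the same state were counted. Inside groups, the 6 pairs shared the state in 8 to 14 of 21 genes, and between groups the 9 pairs shared it in 6 to 15. The pairs most alike were both between groups, IUCL-H 9202 with IUHT-H 9203 and IUCL-H 9223 with IUHT-H 9203, at 15 genes each. The pair least alike was IUCL-H 9214 with IUHT-H 9204 at 6 genes. The range inside groups lay within the range between groups, and no test was made because the genes were chosen for their spread.

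The set of heifers above the largest gap was compared over genes. The 100 genes had 33 of the 62 possible sets, and the 21 on/off genes had 16. The commonest were heifer 9196 alone and heifers 9196, 9202 and 9203, with 9 genes each. The first of these sets was also that of 6.17% of eligible genes and the second that of 25.8%. Heifers 9196 and 9203 alone (8 genes, 6.32% of eligible genes) and heifers 9196, 9202, 9203 and 9214 (8 genes, 7.17%) followed. Other sets were rare over eligible genes but were held by several of the 100 genes. Heifers 9202 and 9204 were the set of 5 of the 100 genes and of 0.106% of eligible genes (12 genes). Heifers 9196 and 9204 were that of 4 of the 100 and 0.124% (14 genes), and heifers 9202, 9203 and 9204 that of 4 and 0.141% (16 genes). The 3 rare sets each held heifer 9204, in which 53.8% of eligible genes had their lowest CPM of the 6 heifers. The 100 genes were chosen for spread and the eligible genes were not, so the shares of sets carry no test.

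**Figure D3:**
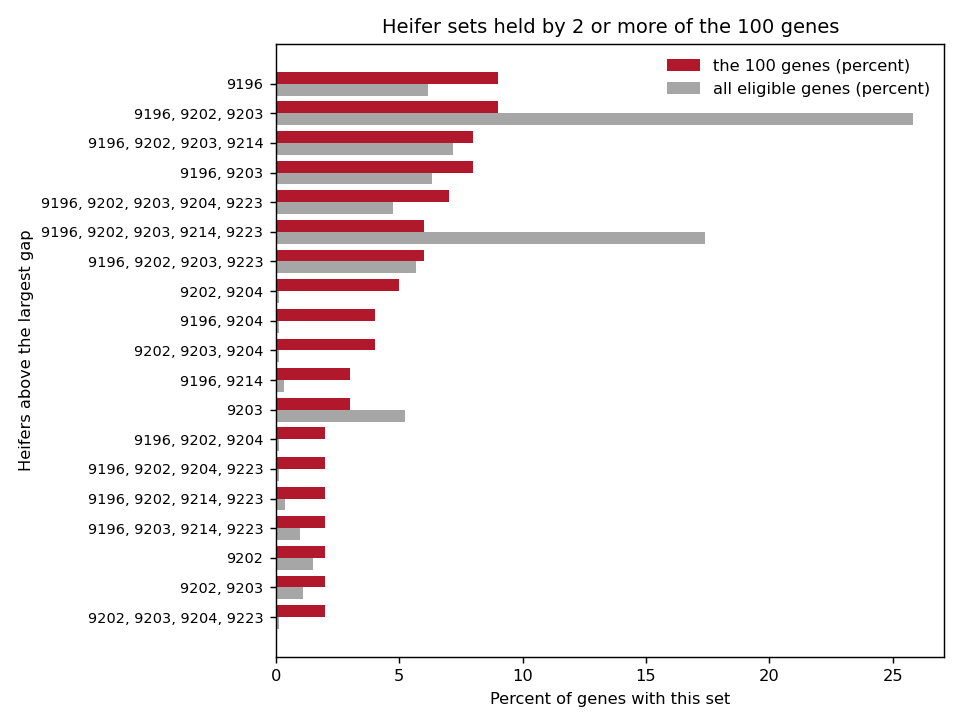
Share of genes with each set of heifers above the largest gap, for the 19 sets held by 2 or more of the 100 genes. Red bars are percent of the 100 genes and grey bars are percent of the 11334 eligible genes. The set of heifers 9196, 9202 and 9203 took 9 of the 100 genes and 25.8% of eligible genes, whereas the set of heifers 9202 and 9204 took 5 of the 100 and 0.106%.

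The gene with the highest average SD, ENSBTAG00000006383, belonged to the set of heifers 9202 and 9204. It was at 56.4 CPM in IUHT-H 9204 and at 69.5 CPM in IUCL-H 9202. In IUHT-H 9196 and 9203 it was at 0.449 and 1.14 CPM and in IUCL-H 9214 and 9223 at 0.464 and 0.732 CPM. It was thus high in 1 heifer of each group, with the group means (IUHT-H, 19.3 ± 32.1; IUCL-H, 23.6 ± 39.8 CPM; SD, n = 3) close to no single heifer, and it missed the on/off limits because heifers 9203 and 9223 were above 0.5 CPM. ENSBTAG00000031802 and ENSBTAG00000040367 had the same 2 heifers on. The first was at 4.31 and 3.17 CPM in heifers 9202 and 9204, the second at 3.86 and 3.01 CPM, and the 4 other heifers had 5 counts or fewer for both. The ratio of the first gene to the second was 1.12 in heifer 9202 and 1.05 in heifer 9204.

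Of the 21 on/off genes, 9 shared their set with another on/off gene, in 4 sets that gave 6 pairs of genes. ENSBTAG00000047547 and ENSBTAG00000002009 were both on in IUHT-H 9196 and 9203 and IUCL-H 9202 and 9223. ENSBTAG00000047547 was at 26.8, 28.6, 29.9 and 20.9 CPM in these heifers and at 0.424 and 0.385 CPM in heifers 9204 and 9214. ENSBTAG00000002009 was at 3.75, 4.49, 4.12 and 2.95 CPM in the same order and at 0 counts in both others. The ratio between these genes kept within 6.38 to 7.24 over the 4 on heifers, a near constant value. By contrast, ENSBTAG00000001801 and ENSBTAG00000047029 were off in the same heifer, but their ratio ranged from 1.06 to 8.04 over the other 5. CPM are not corrected for gene length, so the size of such a ratio compares no levels, only its constancy does. Whether genes of a pair lie near each other or are copies of each other was not examined, since no position or sequence was used.

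The set of heifers 9196 and 9204 joined 3 on/off genes, LOC615223, ENSBTAG00000037605 and BEST3 (a member of the bestrophin family of chloride channels), and ENSBTAG00000048304. BEST3 was at 3.08 and 3.47 CPM in IUHT-H 9196 and 9204, at 0.0499 CPM in IUHT-H 9203 and at 0.12 to 0.155 CPM in IUCL-H. ENSBTAG00000048304, shown because it had the same set, was at 1.61 and 2.35 CPM in these 2 heifers and at 0.0872 CPM or less in the 4 others. The ratio of ENSBTAG00000037605 to BEST3 was 9.31 in heifer 9196 and 10.8 in heifer 9204, and that of LOC615223 to BEST3 was 2.52 and 4.89.

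The comparison between IUHT-H and IUCL-H was not itself used to choose genes, but the spread inside groups that was used widens the error of every comparison. A gene high in only some heifers of a single group also gets its spread and its group difference from the same values. Counts of the 100 genes beside all genes are therefore not independent of the choice. With 3 heifers per group, an exact permutation test of a single gene cannot give a two-sided P below 0.1, so only the fit across genes was used. Of the 100 genes, 94 were tested in a fit over 14724 genes (edgeR quasi-likelihood test with Benjamini-Hochberg adjustment). The filter on counts left out the other 6, in which only 1 or 2 heifers lay above the largest gap. At the cut-off of the study, an unadjusted P of 0.01, 4 of the 94 were higher in IUHT-H and 0 were lower. Over all genes tested 0.428% passed (0.285% higher and 0.143% lower), and over the tested genes that were eligible 0.38%. None of the 94 passed an adjusted p of 0.05 by this test (smallest 0.999), and none of the 14724 did (smallest 0.0765), while at an unadjusted P below 0.05 there were 9 of the 94, all higher in IUHT-H, against 2.54% of all genes. DESeq2, the exact test and the likelihood ratio test each put 1 of the 100 genes below an adjusted p of 0.05, out of 16, 9 and 11 genes in all. The median standard error of the log2 fold change was 0.99 for the 94 genes and 0.19 for all genes tested. The 4 genes past the cut-off were all in the study's table of expression differences, which was made from these heifers and is not independent of them, and 8 of the 100 genes and 64 eligible genes were in that table.

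ENSBTAG00000037605 was at 28.6, 0.262 and 37.7 CPM in IUHT-H 9196, 9203 and 9204 and at 0.36, 0.128 and 0.144 CPM in IUCL-H 9202, 9214 and 9223. The means were 22.2 ± 19.5 and 0.211 ± 0.129 CPM (SD, n = 3), with a log2 fold change of 6.77 (SE 1.56, edgeR adjusted p = 0.999). The unadjusted P of this gene depended on the test. It was 0.0025 with the quasi-likelihood test, 5.0e-06 with DESeq2, 4.0e-06 with the exact test and 2.1e-06 with the likelihood ratio test. The 2 on heifers were far above IUCL-H, and the third IUHT-H lay inside the range of IUCL-H. LOC615223 was at 7.76, 0.0249 and 17.0 CPM in the same 3 IUHT-H and at 0.207, 0 and 0 CPM in IUCL-H. Its log2 fold change was 7.06 (SE 1.92), and it rests on 19 counts in IUCL-H, all in heifer 9202, without which the fitted value was 12.6. CCDC196, a gene for a coiled-coil protein, was on in IUHT-H 9203 and 9204 instead, at 6.08 and 6.00 CPM. It was at 0.0132 CPM in IUHT-H 9196 and at 0.0327, 0.0197 and 0.134 CPM in IUCL-H, with a log2 fold change of 5.97 (SE 1.61). BEST3, with the values above, had a log2 fold change of 4.01 (SE 1.19). The adjusted p was 0.999 for these 3 genes too. Each of these 4 genes was on in 2 of 3 IUHT-H and in none of the IUCL-H, so that the groups overlapped through 1 off IUHT-H. All 4 reached 2 CPM only in IUHT-H, and their SD was larger there (2.59 to 3.81, against 0.11 to 0.93 in IUCL-H). Their choice and their group difference therefore came from the same values. Without IUCL-H 9214 none of the 100 genes passed the cut-off (38 of all genes tested, against 63 with all heifers), and without IUCL-H 9223 2 did (50 of all genes). Without IUCL-H 9202 7 passed (246 of all genes) and without IUHT-H 9204 15 (225 of all genes), of which 13 were higher in IUHT-H and 2 lower. Leaving out IUHT-H 9196 gave 5 genes (55 of all genes), 3 of them higher in IUHT-H, and leaving out IUHT-H 9203 gave 5 (46 of all genes), all higher.

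**Figure D4:**
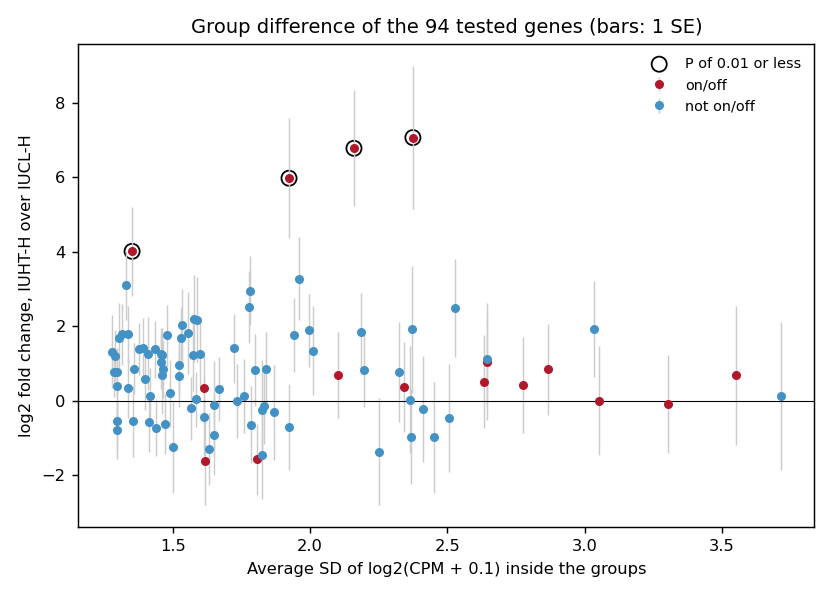
Log2 fold change of IUHT-H over IUCL-H (vertical axis, bars of 1 SE) against the average SD inside groups (horizontal axis) for the 94 tested genes. Red points are on/off genes, blue points the others, and black rings mark the 4 genes past an unadjusted P of 0.01, which lie at log2 fold changes of 4.01 to 7.06.

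The groups were separated without overlap in 1 of the 100 genes, against 2.16% of eligible genes and 2.8% of genes tested. This gene was ENSBTAG00000009656, named after its values were seen, in which the highest IUHT-H was at 4.91 CPM and the lowest IUCL-H at 5.0 CPM, with IUHT-H 9204 off. Its log2 fold change was -1.57 (SE 0.95). Over the 94 tested genes, 68 log2 fold changes were positive and 26 were negative. The median was 0.78, against 0.00 over all genes tested, of which 50.6% were positive. With library size as the only scaling, 70 of 94 were positive, and so were 77.0% of all genes tested, with the median of all genes at 0.13 and that of the 94 at 0.96. The 70 genes with a gap below 3 had 50 positive values and a median of 0.83, and the 16 tested on/off genes had 13 and a median of 0.60. A gene that reached 2 CPM in a single group only got its place among the 100 and its sign from the same values. These signs and medians beside those of all genes therefore carry no test.

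Of the 79 genes that were not on/off, 9 had a gap of 3 or more, and the other 70 were graded, with a largest gap below 3. In heifers 9196, 9202 and 9203, in which the 10 leading genes took the smaller share of counts, 42 of the 100 genes were higher than in every other heifer, against 60.5% of eligible genes. After TMM scaling, which sets the bulk of genes level between heifers, 34 of the 100 genes but 14.3% of eligible genes had this order. Of these 34, 31 were genes with a gap below 3 and 2 were on/off genes. Heifer 9204 was the lowest IUHT-H in 62 of the 100 genes (90.2% of eligible genes) and, after TMM scaling, in 56 (36.9%). Heifer 9202 was the highest IUCL-H in 72 of the 100 genes (71.2% of eligible genes) and, after TMM scaling, in 70 (35.3%). The 100 genes, chosen for spread, spanned a median of 4.56 on the log2 scale against 0.72 over eligible genes. A change of scaling (TMM factors of 0.81 to 1.19) therefore moves their order less. Their shares beside those of eligible genes after scaling carry no test. The part of the leading genes' share of counts in these orders was not tested.

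The 5 genes with the highest mean CPM were graded except ENSBTAG00000010433. Its largest gap was 3.53, and it was not on/off because its low heifers were above 0.5 CPM. ENSBTAG00000017280 was at 699.5, 1023 and 188.4 CPM in IUHT-H 9196, 9203 and 9204 and at 706.5, 183.9 and 124.0 CPM in IUCL-H 9202, 9214 and 9223. ENSBTAG00000010433 was at 138.1, 168.5 and 2.41 CPM in the same IUHT-H and at 38.4, 28.9 and 1.31 CPM in the same IUCL-H. ENSBTAG00000022396 was at 133.0, 229.3 and 4.91 CPM in IUHT-H and at 46.6, 31.8 and 7.47 CPM in IUCL-H. In all 3 genes heifers 9196 and 9203 were far above heifer 9204 inside IUHT-H, and heifer 9202 was the highest IUCL-H. ENSBTAG00000031160 and ENSBTAG00000012918 did not keep this order in IUCL-H. The first was highest there in heifer 9223 (230.0 CPM) and the second in heifer 9214 (270.2 CPM). None of the 5 passed the cut-off between groups with all heifers. ENSBTAG00000022396 passed it without IUHT-H 9204, with a log2 fold change of 2.41.

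Genes of inflammation were compared with the 100 genes by the order of the heifers. Of the symbols listed for acute phase and antimicrobial proteins, chemokines and inflammatory cytokines, and plasma cells, 7 could be matched to an identifier. Only LCN2 was eligible for the 100 genes and it was not among them, while the others were left out by the rule, being named in the text of the study or under the CPM limit. They were HP (haptoglobin, an acute phase protein), LCN2 (lipocalin 2, which binds bacterial siderophores), LAP and DEFB (antimicrobial beta-defensins), SELE (E-selectin, which lets leukocytes adhere to vessel walls), GRO1 (a neutrophil chemokine) and JCHAIN (the joining chain of secreted immunoglobulins). In the table of expression differences made from these heifers 6 of the 7 were listed. Their direction between groups is therefore not independent evidence, and neither is an order with IUHT-H heifers highest. HP was at 6.89, 2.0 and 0.412 CPM in IUHT-H 9196, 9203 and 9204 and at 0.502, 0.671 and 0.33 CPM in IUCL-H 9202, 9214 and 9223. LCN2 was at 29.5, 44.3 and 17.4 CPM in IUHT-H and at 11.2, 5.44 and 13.4 CPM in IUCL-H. JCHAIN was at 169.3, 261.7 and 65.7 CPM in IUHT-H and at 41.6, 32.7 and 63.0 CPM in IUCL-H. Heifers 9196 and 9203 had the highest values of all 7 genes by total counts and of 6 of 7 after TMM scaling, against 43.1% and 9.66% of eligible genes. Both heifers are IUHT-H, and the eligible genes were not picked by a group difference, so these shares give no test. The order was not particular to these lists, since APOA1, GSTT1 and ABCC11 of other lists had it by total counts. Other immune genes did not have it. The leukocyte antigen genes JSP.1 and BLA-DQB were highest in heifers 9196 and 9204, and BOLA and the lymphocyte gene PRF1 in heifer 9202. LAP, DEFB and SELE had no more than 41 counts in any heifer. GRO1 would have ranked among the 100 genes had the genes named by the study been kept, and was at 2.36, 7.21 and 0.447 CPM in IUHT-H and at 0.992, 0.572 and 0.289 CPM in IUCL-H.

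**Figure D5:**
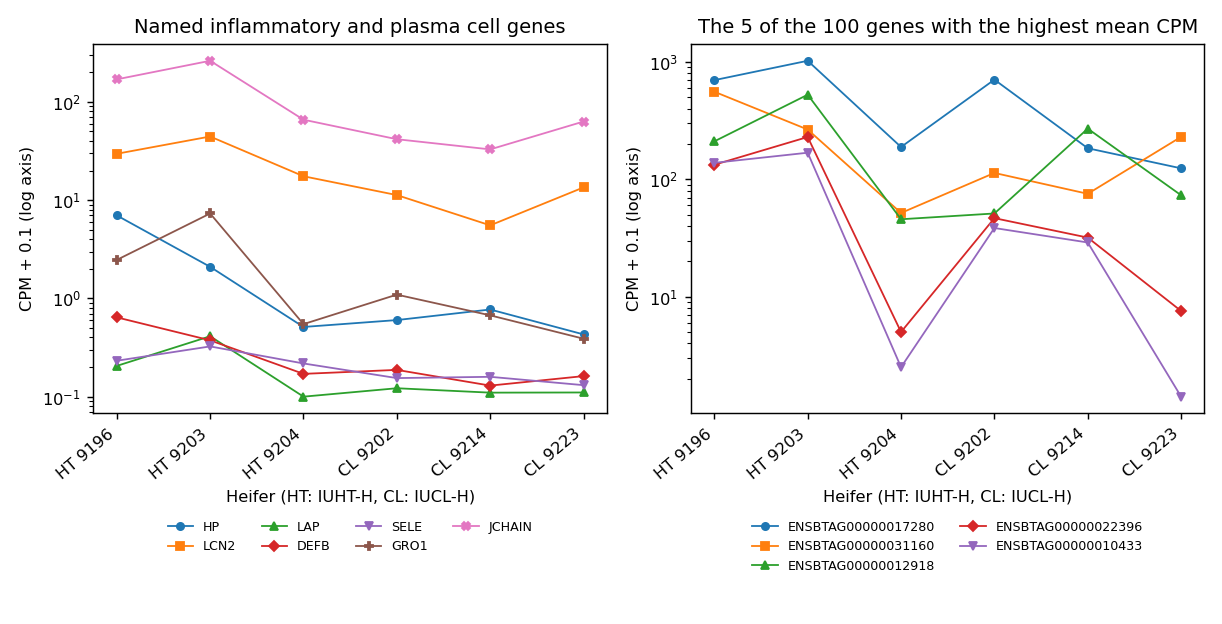
CPM + 0.1 (log axis) in each heifer for the 7 named inflammatory and plasma cell genes (left) and for the 5 of the 100 genes with the highest mean CPM (right). Points are single heifers, lines join the values of a gene, and HT and CL stand for IUHT-H and IUCL-H. By total counts heifers 9196 and 9203 are the highest for all 7 genes on the left (6 of 7 after TMM scaling), and on the right ENSBTAG00000010433 is at 168.5 CPM in heifer 9203 and at 2.41 CPM in heifer 9204.

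Heifers 9196 and 9203 were likewise the 2 highest in 27 of the 100 genes by total counts (43.1% of eligible genes) and in 25 after TMM scaling (9.66%). Of the 25, 22 had a gap below 3 and 2 were on/off. The wide spread for which the 100 genes were chosen limits this comparison with eligible genes too. ZG16B, which encodes a secreted lectin-like protein of glandular epithelium, was among the 25. It was the only gene of the 100 found in any of the 15 gene lists examined, but only the 7 with a symbol could be matched. It was at 16.4, 20.2 and 1.47 CPM in IUHT-H 9196, 9203 and 9204 and at 3.35, 0.671 and 0.361 CPM in IUCL-H 9202, 9214 and 9223. Its log2 fold change was 2.96 (SE 0.92). TMEM132B, a transmembrane protein gene, was at 1.52, 2.67 and 0.118 CPM in IUHT-H and at 0.294, 0.0888 and 0.0516 CPM in IUCL-H, with a log2 fold change of 3.1 (SE 0.93). ENSBTAG00000026813 was at 5.44, 4.99 and 0.271 CPM in IUHT-H and at 1.17, 0.0987 and 0.382 CPM in IUCL-H. In these 3 genes IUHT-H 9204 lay inside the range of IUCL-H, and none of them passed the cut-off in this test. ZG16B and TMEM132B passed it with DESeq2, the exact test, the likelihood ratio test, no filter or library size only. ENSBTAG00000026813 passed with the likelihood ratio test, ZG16B also without IUCL-H 9202, and all 3 genes without IUHT-H 9204. TMEM132B and ENSBTAG00000026813 reached 2 CPM only in IUHT-H, where their SD was larger. The choice of these genes and their group difference therefore came from the same values, in every fit.

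Of the 21 on/off genes, 2 had heifers 9196 and 9203 as the 2 highest, by either scaling. These 2 heifers were in different states in 10 of the 21 on/off genes. They were on different sides of the largest gap in 25 of the 70 genes with a gap below 3. ENSBTAG00000017249, chosen after its values were seen, was at 14.9 CPM in heifer 9196 and at 0.225 CPM in heifer 9203. Heifer 9204 was also off for it (0.365 CPM), while IUCL-H 9202, 9214 and 9223 were at 10.9, 13.4 and 13.8 CPM. CHODL (chondrolectin, a C-type lectin-like membrane protein), given because it has a symbol, was graded in IUHT-H at 23.2, 5.88 and 0.424 CPM in heifers 9196, 9203 and 9204. In IUCL-H 9202, 9214 and 9223 it was at 1.82, 0.474 and 0.33 CPM, with a log2 fold change of 3.28 (SE 1.12), which did not pass the cut-off. It was 1.69 without heifer 9196, and CHODL passed with the exact test, the likelihood ratio test, library size only, no filter or without IUHT-H 9204. LCNL1, a lipocalin-like gene, was at 0.884, 2.11 and 0.0471 CPM in IUHT-H and at 0.414, 0.257 and 0.124 CPM in IUCL-H. Its log2 fold change was 1.70 (SE 0.91), which did not pass the cut-off. It was 0.59 without IUHT-H 9203, and LCNL1 passed without IUHT-H 9204. CHODL and LCNL1 reached 2 CPM only in IUHT-H, where their SD was larger. Their choice and their group difference came from the same values too. Whether inherited variation, udder inflammation or the makeup of the biopsy set any of these patterns was not tested, since no genotype, cell count or histology of the heifers was used.

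Genes high in a single heifer made up the last group, with 16 of the 100 genes. Heifer 9196 was the one for 9 of them. ENSBTAG00000046084 was at 63.4 CPM in heifer 9196, at 0.349 and 9.46 CPM in IUHT-H 9203 and 9204 and at 6.12, 0.858 and 4.52 CPM in IUCL-H. ENSBTAG00000012419 was at 31.6 CPM in heifer 9196 and at 1.16 to 4.32 CPM in the 5 others. ENSBTAG00000046637 was at 2.34 CPM in heifer 9196 and at 0.0873 CPM or less in the others, with 0 counts in heifer 9204. ENSBTAG00000031376, picked after its values were seen, was the other on/off gene on in 1 heifer. It was at 2.62 CPM in IUCL-H 9214 and at 0.0206 to 0.2 CPM in the other 5. Heifer 9196 was the highest of the 6 in 31 of the 100 genes and in 40.5% of eligible genes, and heifer 9203 in 28 and 35.5%.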

How the data were processed

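The authors sequenced mammary RNA of 6 heifers (NEBNext Ultra kit, HiSeq3000), mapped reads with TopHat2 2.0.13 and deposited 1 file per heifer of whole-number counts of reads per Ensembl gene, not normalized and not filtered. The submitters' processing notes also name FastQC and HTSeq and the build UMD3.1, whereas the methods name bosTau7. Strand settings were not given in the sources used here, so overlapping and antisense genes cannot be told apart. Near-identical genes cannot be told apart either, whatever the strand setting.

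Groups were taken from the labels. CPM were computed from the deposited counts with the total of each file. The 2 groups were set against each other in edgeR 4.0.16 with R 4.3.3 (filterByExpr, TMM factors, quasi-likelihood test, Benjamini-Hochberg adjustment), without covariates, on all genes passing the filter. The scripts were tested on simulated data. Heifers were separate animals, and P measures the spread between them. The P cut-off of 0.01 followed the study, and the exact test, the likelihood ratio test, DESeq2 1.42.0, other scalings, no filter and leaving out each heifer were tried.

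The 100 genes and the 15 lists (468 symbols) were chosen with earlier results of these data known. Genes were named by rule: the 10 highest average SDs, the 5 highest mean CPMs, the 3 widest gaps of each of the 4 commonest heifer sets, genes of a list, genes past the P cut-off (at most 6), and 2 genes on either side of the limit. Any other gene was named for its symbol or after its values were seen. Symbols came from identifier and name columns of the supplementary tables (375 identifiers). The RefSeq table paired 0 Ensembl identifiers, so positions, neighbouring genes (planned), sequences, GC content and length were not analysed here. The lists together held 1 of the 100 genes, of which only the 7 with a symbol could be matched. A further IUCL-H that the study mentions was not analysed here.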

Additional observations from a re-analysis of the deposited data

How the results depend on the processing

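All alternatives were planned except TMM scaling of the heifer sets and keeping the genes named by the study (99 of the 100 genes shared), which were chosen after seeing the data. No paired analysis was possible because the heifers carry no shared replicate numbers. The count of genes past an unadjusted P of 0.01 (4, beside 63 of all genes) was 4 (64) with DESeq2 size factors in edgeR, 6 (124) with DESeq2, 7 (108) with the exact test, 8 (112) with the likelihood ratio test, 8 (90) with every gene of at least 1 count, 7 (44) with library size only, and 0 to 15 (38 to 246) when a heifer was left out. DESeq2, the exact test and the likelihood ratio test each put 1 of the 100 genes (16, 9 and 11 of all genes) below an adjusted p of 0.05 (0 with the quasi-likelihood test), and the fits without IUHT-H 9196 or IUHT-H 9203 put 2 (3 and 2 of all genes). Of the 100 genes, 63 were shared with a minimum of 5 CPM, 67 with a pseudocount of 1, 78 with 0.5, 68 with the smaller SD, 72 with totals that leave out the 10 leading genes, 87 with TMM scaling, 99 with no upper limit and 68 to 84 without a heifer. The on/off genes (21) became 10 with an off limit of 0.2 CPM, 8 with an on limit of 5 CPM, 23 with a gap of 2, 18 with TMM scaling and 20 to 25 without a heifer. TMM scaling gave 34 heifer sets in place of 33, and 84 genes kept theirs. The log2 fold change changed sign with library size only for ENSBTAG00000006383 (-0.29 in place of 0.12) and ENSBTAG00000047547 (0.13 in place of -0.09). For ENSBTAG00000002009 (0.00) it was -0.0057 with DESeq2, -0.0060 with the exact and likelihood ratio tests and -0.00043 with every gene. Without 1 heifer it ranged from -5.00 to 5.15 for ENSBTAG00000006383, -0.67 to 0.47 for ENSBTAG00000047547, -0.58 to 0.58 for ENSBTAG00000002009, -0.15 to 1.32 for ENSBTAG00000001801, -0.021 to 1.43 for ENSBTAG00000031160, -0.31 to 1.83 for ENSBTAG00000012918, -0.12 to 2.52 for ENSBTAG00000012419 and -0.16 to 3.04 for ENSBTAG00000011487. LOC615223 did not pass with DESeq2 (unadjusted P of 0.0118). The cause of these changes was not tested. Each of the 4 genes lost that call in at least 1 fit without a heifer. Counts of 3 or fewer, present in at least 1 heifer for 22 of the 100 genes, limit how low an off state can be read, and counts cover counting error only.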
